A study of Mus musculus with 22 samples.

Results

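The genes described are 9 that make, sense or answer to oxysterols, the oxygenated forms of cholesterol. They were chosen by name, and their probes were found through the RefSeq accession that the scanner files give for each probe. The 9 genes are covered by 11 probes, out of 20018 genes named in this way and 55681 probes on the array. They are the cholesterol 25-hydroxylase Ch25h, the oxysterol 7α-hydroxylase Cyp7b1, the oxysterol receptor Gpr183, the nuclear receptors Nr1h2 and Nr1h3, and the genes Abca1, Abcg1, Mylip and Lpcat3, which these nuclear receptors switch on. Female C57BL/6 mice of 8 weeks received one intratracheal instillation of 40 µl holding 18, 54 or 162 µg of Mitsui7, a long and rigid multiwalled carbon nanotube, and the right lung was collected after 24 hours. Vehicle controls received saline with a share of lavage fluid and no nanotubes, and every mouse, controls included, was anaesthetised with Hypnorm and Dormicum and instilled. No group carried a genetic change. The control and 54 µg groups held 5 mice each and the 18 and 162 µg groups 6 each, every mouse hybridised on its own array, and the p-values measure the spread between these mice.

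Oxysterols carry several kinds of signal. Ch25h adds a hydroxyl group to cholesterol and is induced in macrophages and other cells by inflammatory stimuli. Its product, 25-hydroxycholesterol, holds back the transcription factor SREBP2 that drives cholesterol synthesis, and it binds the liver X receptors Nr1h3 (LXRα) and Nr1h2 (LXRβ). Cyp7b1 turns it into 7α,25-dihydroxycholesterol, the ligand of Gpr183 (EBI2), which guides the migration of B cells, T cells and dendritic cells. Liver X receptors pair with retinoid X receptors and raise genes that remove cholesterol from cells, among them Abca1 and Abcg1. In the lung, alveolar macrophages clear cholesterol and phospholipid of the surfactant and depend on these exporters.

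Promoter sequence upstream of the transcription start was at hand from RefSeq, build GRCm38.p6, for 7 of the 9 genes, and not for Cyp7b1 and Abcg1. Ch25h and Abca1 are shown because they are the synthesis gene and the LXR target whose changes are described first, and because each held one of the short sequences that were searched for. The motifs were picked with the results and the known regulation of these genes in mind. The stretches are the 250 bases before the start, both on the minus strand, at chr19:34475149-34475398 for Ch25h and chr4:53159896-53160145 for Abca1, written 5′ to 3′ along the gene. Capitals mark the cAMP response element TGACGTCA in Ch25h and, in Abca1, the bases that match a degenerate direct repeat of LXR sites on the opposite strand, GGTNA on either side of 5 bases of any kind.
Ch25h promoter: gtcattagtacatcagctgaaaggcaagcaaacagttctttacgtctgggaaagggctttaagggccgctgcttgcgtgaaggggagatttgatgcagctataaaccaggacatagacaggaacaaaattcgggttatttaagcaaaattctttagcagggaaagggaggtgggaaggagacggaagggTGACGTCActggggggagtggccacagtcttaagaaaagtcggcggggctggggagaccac
Abca1 promoter: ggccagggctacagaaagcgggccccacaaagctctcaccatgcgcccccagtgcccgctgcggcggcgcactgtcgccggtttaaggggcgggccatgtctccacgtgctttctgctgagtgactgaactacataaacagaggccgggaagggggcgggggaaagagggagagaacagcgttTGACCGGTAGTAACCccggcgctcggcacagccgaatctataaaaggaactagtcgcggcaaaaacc
The capitals begin 61 bases before the start in Ch25h and 67 bases before it in Abca1. The start is the one given with each promoter sequence. For Abca1 it lies inside the gene span given below, which reaches 53159988. The capitals in Abca1, at 53159948-53159962, therefore lie within that span. Among 32851 promoter windows of this length, 1.55% held TGACGTCA and 0.621% held the repeat on either strand, and among the 7 genes each was found in 1 gene only. The AP-1 site TGANTCA was present in 6.75% of windows, the interferon response element (GAAA on either side of NN) in 2.98% and the NF-kB site (GGG, NNN and TTCC in a row) in 4.65%, and in none of the 7 genes. These matches describe the letters of the windows, and binding was not measured.

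Values are given as log2 of the signal of lung RNA over that of a reference RNA pooled from mouse cell lines, so a value of 0 means the same level as in the reference. Dose and slide were fitted together over all arrays with limma, and p was adjusted over 55681 probes. A gene was called where the adjusted p was at most 0.05, the change at least 1.5-fold (0.585 on the log2 scale) and the probe expressed above background. All 3 doses were compared with the same 5 controls. The tissue matched its label, since the mean log2 ratio of 8 type II alveolar markers lay between 4.78 and 6.19 in every mouse, and that of 4 type I markers between 4.61 and 5.85. Control replicate 2 stood apart in neutrophil markers, with a mean log2 ratio of 4.60 over 7 genes against 1.86 to 2.45 in the other 4 controls. The share of probes above background ranged from 52.1% to 83.5% over the arrays. All 9 genes were expressed, and the median standard error of a log2 fold change over all probes was 0.122 for the lowest and highest dose and 0.130 for 54 µg. In whole lung, fewer cells of a type and less RNA per cell cannot be told apart.

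At 162 µg, Ch25h and Lpcat3 were called higher and Abcg1 lower, and at 18 µg Abca1 was called lower. Ch25h also had positive log2 fold changes at 18 µg (1.70) and 54 µg (2.11) that did not pass the adjusted threshold. The call of Abca1 depended on single mice and on the processing. Of the 9 genes 1 was called at 18 µg, where 1.7% of all named genes were called, and it was lower. None was called at 54 µg, where 0.32% of all named genes were called. At 162 µg 3 were called, 2 higher and 1 lower, against 5.64% of all named genes, made up of 2.74% higher and 2.9% lower. At an unadjusted p below 0.05 in limma, 5 of the 9 genes passed at 18 µg, 4 at 54 µg and 6 at 162 µg, where 19%, 12% and 24.4% of all named genes did. At 18, 54 and 162 µg the 9 genes had median log2 fold changes of 0.17, -0.11 and 0.09, with medians over all named genes of -0.01, -0.0057 and -0.0006, so the genes did not move one way as a group.

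**Figure D1:**
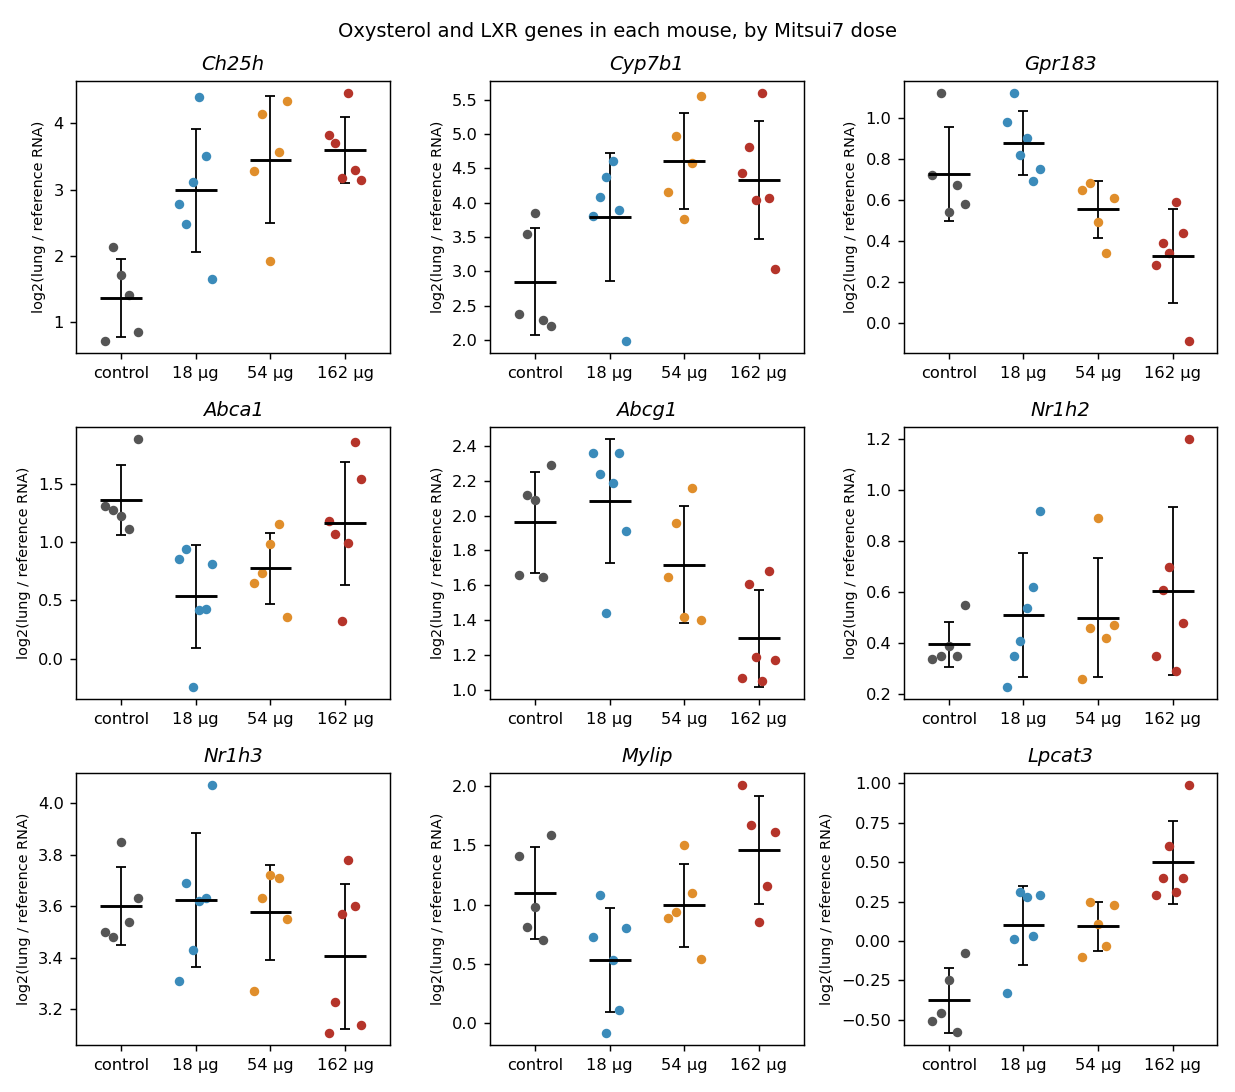
Loess-normalized log2 ratio of lung to reference RNA (y axis) of each gene on its brightest probe, in control mice and at 18, 54 and 162 µg Mitsui7 (x axis), with 1 point per mouse and bars for the mean and 1 SD. Ch25h lay at 0.72 to 2.14 in controls and at 3.14 to 4.45 at 162 µg, and Abcg1 was lowest at 162 µg, while Nr1h2 and Nr1h3 overlapped across all groups.

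Ch25h (chr19:34473783-34475148) had the largest log2 fold change of the 9 genes, and its rise was called at 162 µg. In controls its log2 ratio was 0.72, 2.14, 1.72, 1.41 and 0.86. At 54 µg the mice had 3.28, 4.14, 1.92, 3.57 and 4.34. In order, the lowest, median and highest mouse were at 1.65, 2.95 and 4.39 at 18 µg. At 162 µg they had 3.14, 3.50 and 4.45, so all 6 mice lay above every control, which held for 3.12% of all named genes. At 18 µg 5 of 6 mice and at 54 µg 4 of 5 lay above every control, while 1.34% of all named genes had the whole 54 µg group above. The fitted log2 fold change at 162 µg was 2.18 (standard error, SE, 0.47 and adjusted p = 0.0104 in limma), a 4.53-fold rise with a 95% confidence interval of 1.19 to 3.17 on the log2 scale. At 18 µg it was 1.70 (SE 0.47, adjusted p = 0.0781) and at 54 µg 2.11 (SE 0.50, adjusted p = 0.114), neither of which passed the adjusted threshold in this fit. The paper, which used another test, lists Ch25h among the genes raised at all 3 doses. The difference between 162 and 18 µg was 0.48 (95% confidence interval -0.45 to 1.41, adjusted p = 0.675). The call at 162 µg was kept in 22 of 22 fits that each left out 1 mouse, with changes from 1.99 to 2.43. It was lost when arrays were centred on their median (1.74, adjusted p = 0.124) or not normalized (1.73, adjusted p = 0.463). Of 16 alternative processings, 4 called the change at 18 µg and 5 that at 54 µg. At 54 µg the change was called without 54 µg replicate 3, the mouse at 1.92 (2.63, adjusted p = 0.0011). At 18 µg it was called without 18 µg replicate 6 (1.93, adjusted p = 0.0404), without 54 µg replicate 3 (1.51, adjusted p = 0.0209) and without 54 µg replicate 5 (1.83, adjusted p = 0.0265).

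Cyp7b1 (chr3:18071944-18243890), the enzyme that follows Ch25h, had positive changes at each dose that did not pass the adjusted threshold. Its log2 ratio in controls was 2.38, 3.54, 3.85, 2.29 and 2.21. At 54 µg it was 4.15, 4.97, 3.76, 4.58 and 5.55. Lowest, median and highest values were 1.99, 3.98 and 4.61 at 18 µg and 3.03, 4.25 and 5.59 at 162 µg. The groups overlapped at every dose, with 4 of 6, 4 of 5 and 5 of 6 mice above all controls at 18, 54 and 162 µg, and 18 µg replicate 6 lay below all controls. On the log2 scale it differed from controls by 1.12 (SE 0.44, adjusted p = 0.226) at 18 µg, 1.88 (SE 0.48, adjusted p = 0.138) at 54 µg and 1.49 (SE 0.44, adjusted p = 0.0568) at 162 µg. At 162 µg its confidence interval ran from 0.56 to 2.43. At 162 µg it was called without 18 µg replicate 6 (1.37, adjusted p = 0.0484), without 54 µg replicate 3 (1.36, adjusted p = 0.0305) and without 54 µg replicate 5 (1.67, adjusted p = 0.00182). Without 54 µg replicate 3 it was called at 54 µg (2.26, adjusted p = 0.0173), and without 54 µg replicate 5 at 18 µg (1.29, adjusted p = 0.0242). It was called at 162 µg in 5 of 16 alternative processings, among them the Cy5 channel alone (1.48, adjusted p = 0.0100).

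Across the 22 mice, Ch25h and Cyp7b1 had like profiles. Their log2 ratios correlated at r = 0.88 over mice of all groups, given as a description, since the points share slides, the reference RNA and the dose groups. Ranks were taken over 14976 expressed genes with a value in each of the 22 mice, which left out Mylip. Among them Cyp7b1 ranked 15 by likeness to Ch25h, and Ch25h ranked 3 by likeness to Cyp7b1. The 5 genes most like Ch25h were Cish (r = 0.93), a suppressor of cytokine signalling, the transglutaminase Tgm1 (0.92), the CTP synthase Ctps (0.92), the eosinophil chemokine Ccl11 (0.92) and the protease inhibitor Timp1 (0.91). Those most like Cyp7b1, beside Ch25h, were Ccl11 (0.89), the retinaldehyde dehydrogenase Aldh1a3 (0.89), the phosphatase Ptpn2 (0.88) and AA467197 (0.86). Lpcat3 had r = 0.57 with Ch25h. The other ranked genes of the 9 had negative r with it, at -0.43 for Abca1, -0.27 for Abcg1, -0.24 for Nr1h3, -0.18 for Gpr183 and -0.06 for Nr1h2.

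Macrophages can express Ch25h, and each of their 2 marker lists held 1 gene or none called higher at each dose. Of all named genes 0.52%, 0.205% and 2.74% were called higher at 18, 54 and 162 µg. Arg1, an enzyme of alternatively activated macrophages, was the 1 of 7 monocyte and recruited macrophage markers that was called higher, at 18 µg (2.06), 54 µg (2.92) and 162 µg (1.76 on the log2 scale). The summed ratio of these 7 markers was 20.7 to 79.0 in controls and 15.0 to 48.9 at 162 µg, so the ranges overlapped. Control replicate 2 held the 79.0, and the other controls reached 34.7. At 162 µg 2 of the 7 had a positive log2 fold change, with a median of -0.44 over the list. Of 10 alveolar macrophage markers 1 was called higher at 18 µg, Chil3 (1.73), none at 54 µg and 1 at 162 µg, Marco (1.51). Of 7 neutrophil markers none was called at any dose, with a median log2 fold change of 0.64 at 162 µg. Their summed ratios were 102 to 595 in controls and 157 to 623 at 162 µg. Control replicate 2 alone held the 595. The other controls lay between 102 and 137, below every mouse at 162 µg. Without control replicate 2, whose neutrophil markers were high, the change of Ch25h at 162 µg was 2.43 (adjusted p = 0.0120). The part of any cell type in the rise of Ch25h was not tested.

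Gpr183 (chr14:121952331-121965193), the receptor for the oxysterol that Cyp7b1 helps to make, was not called at any dose, and its values at 162 µg were the lowest. Its log2 ratio was 0.72, 1.12, 0.54, 0.67 and 0.58 in controls and 0.65, 0.68, 0.49, 0.34 and 0.61 at 54 µg. From lowest to highest, with the median between them, mice had 0.69, 0.86 and 1.12 at 18 µg. At 162 µg they had -0.09, 0.36 and 0.59. All 6 mice at 162 µg thus lay below all 6 mice at 18 µg. All 5 mice at 54 µg did so too, with the highest at 0.68 against a lowest of 0.69 at 18 µg. The share of all named genes separated in these ways was not counted. Against controls 5 of 6 mice at 162 µg lay below every control, so Gpr183 was not among the 3.68% of named genes with the whole group below. Against controls the fitted log2 difference was 0.17 (SE 0.12, adjusted p = 0.541) at 18 µg, -0.11 (SE 0.13, adjusted p = 0.894) at 54 µg and -0.37 (SE 0.12, adjusted p = 0.0776) at 162 µg. Between 162 and 18 µg the difference was -0.54 (SE 0.11, adjusted p = 0.00885), which passed the adjusted p but not the fold threshold. It passed both, as lower at 162 µg, without 162 µg replicate 4 (-0.60, adjusted p = 0.00608), without 162 µg replicate 5 (-0.60, adjusted p = 0.0083), without slides 3 and 7 (-0.68, adjusted p = 0.0175) and with quantile normalization (-0.68, adjusted p = 0.00316). The probe was dim, with Cy5 signals of 78 to 274, and the scanner software marked it as well above background on 5 of 6 arrays at 162 µg and 4 of 5 at 54 µg.

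B cell markers were lower at 162 µg, where the mean of Gpr183 was lowest. Of 8, 3 were called lower there, among them Ms4a1 (CD20, -0.89) and the complement receptor Cr2 (-1.02), against 2.9% of all named genes. Between 162 and 18 µg 4 of the 8 were called lower, against 1.36% of all named genes. Between 162 and 54 µg the median log2 difference of the 8 markers was -0.05, where Gpr183 had -0.25. All 8 had a negative change at 162 µg, with a median of -0.53 on the log2 scale. The summed ratio of the 8 markers to the reference lay between 18.0 and 29.5 in controls, between 15.5 and 31.9 in the 18 µg group, between 7.83 and 22.9 in the 54 µg group and between 7.04 and 20.3 in the 162 µg group, and all 8 were expressed above background. T cell markers had 1 of 8 called lower at 162 µg, the kinase Lck (-0.83). The part of these cells in the change of Gpr183 was not tested. The genes with profiles most like Gpr183 over the 22 mice were the leukocyte surface protein Spn (r = 0.83), the B cell and myeloid protein Ly86 (0.83), Tep1 (0.79), Thap1 (0.79) and Plcb1 (0.78). Ch25h had r = -0.18 and Cyp7b1 -0.04 with Gpr183.

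Neither liver X receptor was called at any dose. Nr1h2 (chr7:44549616-44553968) had log2 ratios of 0.34, 0.35, 0.39, 0.35 and 0.55 in controls and 0.26, 0.46, 0.89, 0.42 and 0.47 at 54 µg. It ranged from 0.23 to 0.92 at 18 µg and from 0.29 to 1.20 at 162 µg, so the treated groups covered the controls on both sides. Its fitted log2 difference from controls was 0.03, -0.01 and 0.09 for 18, 54 and 162 µg, with adjusted p-values of 0.946, 0.994 and 0.815. At 162 µg the confidence interval of -0.18 to 0.37 lay within the fold threshold. The direction at 18 µg turned in 4 of 16 alternative processings, to -0.51 without normalization at the lowest.

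Nr1h3 (chr2:91184061-91202829), the receptor that is strong in macrophages, was measured by 2 probes. On the brighter one the log2 ratio was 3.50, 3.48, 3.85, 3.54 and 3.63 in controls and 3.27, 3.63, 3.72, 3.71 and 3.55 at 54 µg. The lowest, median and highest mouse had 3.31, 3.63 and 4.07 at 18 µg and 3.11, 3.40 and 3.78 at 162 µg. Every dose group overlapped the controls. limma put its change at -0.02 (adjusted p = 0.969) at 18 µg, -0.11 (adjusted p = 0.921) at 54 µg and -0.29 (SE 0.14, adjusted p = 0.263) at 162 µg. The dimmer probe gave 0.13, -0.06 and -0.27, with an adjusted p of 0.429 at 162 µg, so the 2 probes differed little at 162 µg and had opposite signs at 18 µg. At 18 µg the brighter probe turned positive in 7 of 16 alternative processings, at most to 0.05.

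Abca1 (chr4:53030789-53159988), which exports cholesterol and phospholipid to lipid-poor apolipoprotein A-I, was lower at 18 µg. Its log2 ratio was 1.31, 1.27, 1.22, 1.11 and 1.88 in controls. The lowest, median and highest mouse at 18 µg had -0.24, 0.62 and 0.94. All 6 mice at 18 µg lay below every control, which held for 1.64% of all named genes. At 54 µg the mice had 0.65, 0.73, 0.98, 1.15 and 0.36, and at 162 µg the lowest, median and highest had 0.32, 1.12 and 1.86. At 162 µg the group overlapped the controls widely. On the log2 scale it differed from controls by -0.86 (SE 0.18, adjusted p = 0.0309) at 18 µg, -0.72 (SE 0.19, adjusted p = 0.182) at 54 µg and -0.21 (SE 0.18, adjusted p = 0.636) at 162 µg. The 18 µg value is a 1.82-fold fall with a confidence interval of -1.24 to -0.48 on the log2 scale. The level at 162 µg was higher than at 18 µg by 0.65 (SE 0.17, adjusted p = 0.0390).

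The call of Abca1 at 18 µg depended on single mice and on the processing, and its direction was negative in all of them. It was kept in 16 of 22 fits without 1 mouse and in 7 of 16 alternative processings, over which the change ranged from -1.26 to -0.67. It was lost without control replicate 1 (-0.92, adjusted p = 0.0866), without control replicate 4 (-0.72, adjusted p = 0.0852) and without control replicate 5 (-0.82, adjusted p = 0.0999). It was also lost without 18 µg replicate 3 (-0.81, adjusted p = 0.0718), replicate 4 (-0.83, adjusted p = 0.0568) or replicate 5 (-0.71, adjusted p = 0.0859). Without slides 3 and 7, the slides on which the deposited log2 table departed most from the loess values, Abca1 was at -0.67 (adjusted p = 0.238) at 18 µg. The higher level at 162 than at 18 µg was kept in 12 of 22 such fits and in 5 of 16 alternative processings. It was lost without control replicates 3 or 5, without 18 µg replicates 3, 4 or 5, without 54 µg replicate 4, and without 162 µg replicates 1, 2, 5 or 6, with differences from 0.51 to 0.68 and adjusted p-values from 0.0507 to 0.113. Without slides 3 and 7 this difference was 0.46 (adjusted p = 0.315). Both counts out of 16 include the normalization of average intensities and the changes of the expression filter, which could not move these values. The mean of all probes left them as they were too, since Abca1 has 1 probe.

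Abcg1 (chr17:31057694-31117984), which passes cholesterol on to high-density lipoprotein particles, had another dose pattern from Abca1. In controls its log2 ratio was 1.66, 2.12, 2.09, 1.65 and 2.29, and at 54 µg 1.65, 1.96, 1.42, 2.16 and 1.40. In order, the lowest, median and highest mouse were at 1.44, 2.22 and 2.36 at 18 µg and 1.05, 1.18 and 1.68 at 162 µg. At 162 µg 5 of 6 mice lay below every control, and the mouse at 1.68 overlapped with the lowest of them, so Abcg1 was not among the 3.68% of named genes with the whole group below. Against controls the fitted log2 difference was 0.23 (SE 0.13, adjusted p = 0.418) at 18 µg, -0.24 (SE 0.14, adjusted p = 0.707) at 54 µg and -0.60 (SE 0.13, adjusted p = 0.0104) at 162 µg. The fall at 162 µg was 1.51-fold and lay just past the fold threshold. Between 162 and 18 µg the difference was -0.83 (SE 0.12, adjusted p = 0.000933), a 1.78-fold lower level at 162 µg that was kept in 22 of 22 fits without 1 mouse and in 14 of 16 alternative processings. The positive value at 18 µg turned negative with median centring (-0.16) and without normalization (-0.31).

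The fall of Abcg1 at 162 µg against controls was called in 17 of 22 fits without 1 mouse and in 11 of 16 alternative processings. In the other 5 fits the adjusted p stayed at or below 0.05 and the change came under the fold threshold. These were without control replicate 2 (-0.52, adjusted p = 0.0387), control replicate 4 (-0.56, adjusted p = 0.0365), 18 µg replicate 4 (-0.58, adjusted p = 0.0121), 162 µg replicate 1 (-0.50, adjusted p = 0.0450) and 162 µg replicate 4 (-0.58, adjusted p = 0.0168). It was not called without slides 3 and 7 (-0.57, adjusted p = 0.0750), with the Cy5 channel alone (-0.56, adjusted p = 0.0671), with the replicate number fitted beside the slide (-0.49, adjusted p = 0.236), with median centring (-0.85, adjusted p = 0.126) or without normalization (-0.86, adjusted p = 0.565). Alveolar macrophages are rich in Abcg1, and of 10 of their markers 1 was called higher at 162 µg, the scavenger receptor Marco (1.51 on the log2 scale), and none lower. Of all named genes 2.74% were called higher and 2.9% lower at 162 µg. The summed ratio of the 10 markers was 171 to 228 in controls and 192 to 346 at 162 µg. Between 162 and 18 µg 1 of the 10 was called lower, the integrin Itgax (-0.64), against 1.36% of all named genes. The part of these cells in the fall of Abcg1 was not tested.

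**Figure D2:**
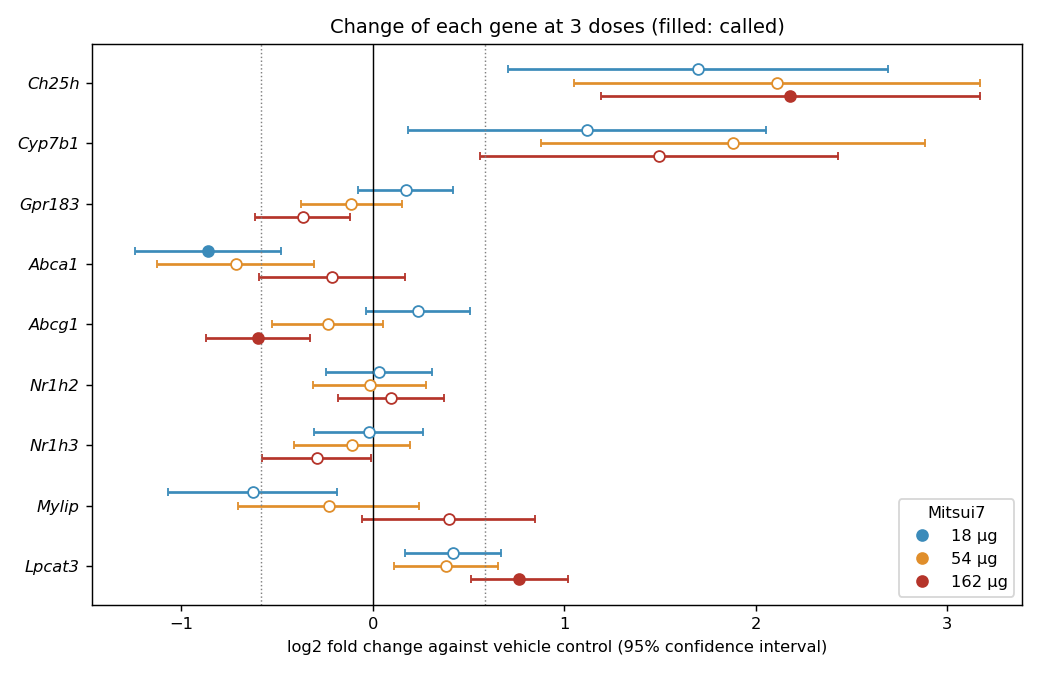
Log2 fold change of each gene against vehicle control (x axis) at 18, 54 and 162 µg, with 95% confidence intervals from limma, filled points for called changes and dotted lines at the 1.5-fold threshold. The interval of Ch25h at 162 µg ran from 1.19 to 3.17, Abca1 was lowest at 18 µg (-0.86) and Abcg1 at 162 µg (-0.60).

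Mylip (chr13:45389742-45411940), also called Idol, is a ubiquitin ligase and LXR target, and it was called between doses and not against controls. On its brighter probe the log2 ratio was 1.41, 0.81, 0.98, 0.70 and 1.59 in controls and 0.89, 0.94, 1.5, 1.1 and 0.54 at 54 µg. The lowest, median and highest mouse at 18 µg had -0.08, 0.63 and 1.08. The 5 mice measured at 162 µg had 2.01, 1.67, 0.85, 1.16 and 1.61, since the spot of 162 µg replicate 4 was marked as an outlier and left out of the fit. The control values lay between those of the 2 dose groups and overlapped both. Its fitted log2 difference from controls was -0.63 (SE 0.21, adjusted p = 0.143) at 18 µg, -0.23 (adjusted p = 0.867) at 54 µg and 0.40 (SE 0.21, adjusted p = 0.359) at 162 µg. The level at 162 µg was 1.03 higher than at 18 µg on the log2 scale (SE 0.20, adjusted p = 0.00773), a call kept in 22 of 22 fits without 1 mouse, with differences of 0.91 to 1.15, and in 13 of 16 alternative processings. Without control replicate 2 the change at 18 µg was called lower (-0.85, adjusted p = 0.0384).

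The dimmer probe of Mylip gave a small positive difference at 18 µg, where the brighter one was negative. limma put its change at 0.06 (adjusted p = 0.838) at 18 µg, 0.22 (adjusted p = 0.634) at 54 µg and 0.55 (SE 0.10, adjusted p = 0.00472) at 162 µg, the last of which passed the adjusted p but not the fold threshold. Between 162 and 18 µg it gave 0.49 (adjusted p = 0.00815), in the same direction as the brighter probe. This probe was marked as well above background on 4 of 5 control arrays, 3 of 6 at 18 µg, 2 of 5 at 54 µg and 4 of 6 at 162 µg, with Cy5 signals of 70 to 191.

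Lpcat3 (chr6:124663094-124704716), which puts polyunsaturated fatty acids into membrane phospholipids, was higher at 162 µg. Its log2 ratio was -0.51, -0.46, -0.25, -0.58 and -0.08 in controls and -0.10, 0.25, 0.11, -0.03 and 0.23 at 54 µg. Lowest, median and highest values were -0.33, 0.16 and 0.31 at 18 µg and 0.29, 0.40 and 0.99 at 162 µg. All 6 mice at 162 µg lay above every control, which held for 3.12% of all named genes. At 18 µg 5 of 6 mice and at 54 µg 4 of 5 lay above every control. On the log2 scale it differed from controls by 0.42 (SE 0.12, adjusted p = 0.0858) at 18 µg, 0.38 (SE 0.13, adjusted p = 0.320) at 54 µg and 0.77 (SE 0.12, adjusted p = 0.00125) at 162 µg. The rise at 162 µg was 1.70-fold, and it was kept in 22 of 22 fits without 1 mouse, with changes of 0.65 to 0.85. It was lost with median centring (0.45, adjusted p = 0.412), without normalization (0.44, adjusted p = 0.962) and with the replicate number fitted beside the slide (0.72, adjusted p = 0.0596). The difference of 0.35 between 162 and 18 µg did not pass (SE 0.11, adjusted p = 0.0982).

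Between doses, 3 of the 9 genes were called at 162 against 18 µg, with Abca1 and Mylip higher and Abcg1 lower, where 4.1% of all named genes were called. At an unadjusted p below 0.05 in limma 6 of the 9 passed there, and 22.6% of all named genes. At 162 against 54 µg none of the 9 was called, nor was any named gene (0%), while at an unadjusted p below 0.05 in limma 5 of the 9 passed, as did 2133 of all 20018 named genes. At 54 against 18 µg none of the 9 was called against 0.025% of all named genes, where 0.015% were called higher. At an unadjusted p below 0.05 in limma 2 of the 9 passed in that comparison, and 13.2% of all named genes. In the order of group means, the control group had the lowest value for Ch25h, Cyp7b1, Nr1h2 and Lpcat3, the 18 µg group for Abca1 and Mylip, and the 162 µg group for Gpr183, Abcg1 and Nr1h3. Neighbouring groups in the order of doses did not differ by a call for any of the 9 genes, apart from control against 18 µg for Abca1. From controls to the highest dose, the means of Abca1 were 1.36 ± 0.30 (SD, n = 5), 0.54 ± 0.44 (SD, n = 6), 0.77 ± 0.31 (SD, n = 5) and 1.16 ± 0.52 (SD, n = 6). Those of Abcg1 were 1.96 ± 0.29 (SD, n = 5), 2.08 ± 0.35 (SD, n = 6), 1.72 ± 0.33 (SD, n = 5) and 1.30 ± 0.28 (SD, n = 6) in the same order. The 2 exporters thus had their lowest means at different doses, 18 µg for Abca1 and 162 µg for Abcg1.

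The arrays lay on 7 slides, and slides 3 and 6 held no control, so differences were also read between mice of one slide. Ch25h and Cyp7b1 were higher than the control of the same slide on 4 of 4 slides at 18 µg, 3 of 3 at 54 µg and 4 of 4 at 162 µg. For Ch25h these differences ran from 0.33 to 2.65 at 18 µg. They ran from 2.42 to 2.71 at 54 µg and from 1.67 to 2.44 at the highest dose. Abca1 was lower than the control of its slide on 4 of 4 slides at 18 µg, by differences of -1.45 to -0.33. It was also lower on 3 of 3 slides at 54 µg (-0.73 to -0.49) and 4 of 4 at 162 µg (-0.79 to -0.03). All within-slide differences come from the same arrays as the fit. The share of all named genes with one sign on every slide was not counted. Between 162 and 18 µg Abca1 was higher at 162 µg on 5 of 5 slides (0.24 to 1.42) and Mylip on 4 of 4 (0.81 to 1.06). On the same 5 slides Abcg1 was lower at 162 µg (-1.17 to -0.25) and so was Gpr183 (-0.84 to -0.25). Lpcat3 was higher than the control at 162 µg on 4 of 4 slides, by 0.48 to 1.18. Nr1h2 and Nr1h3 took both signs within slides at each dose.

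**Figure D3:**
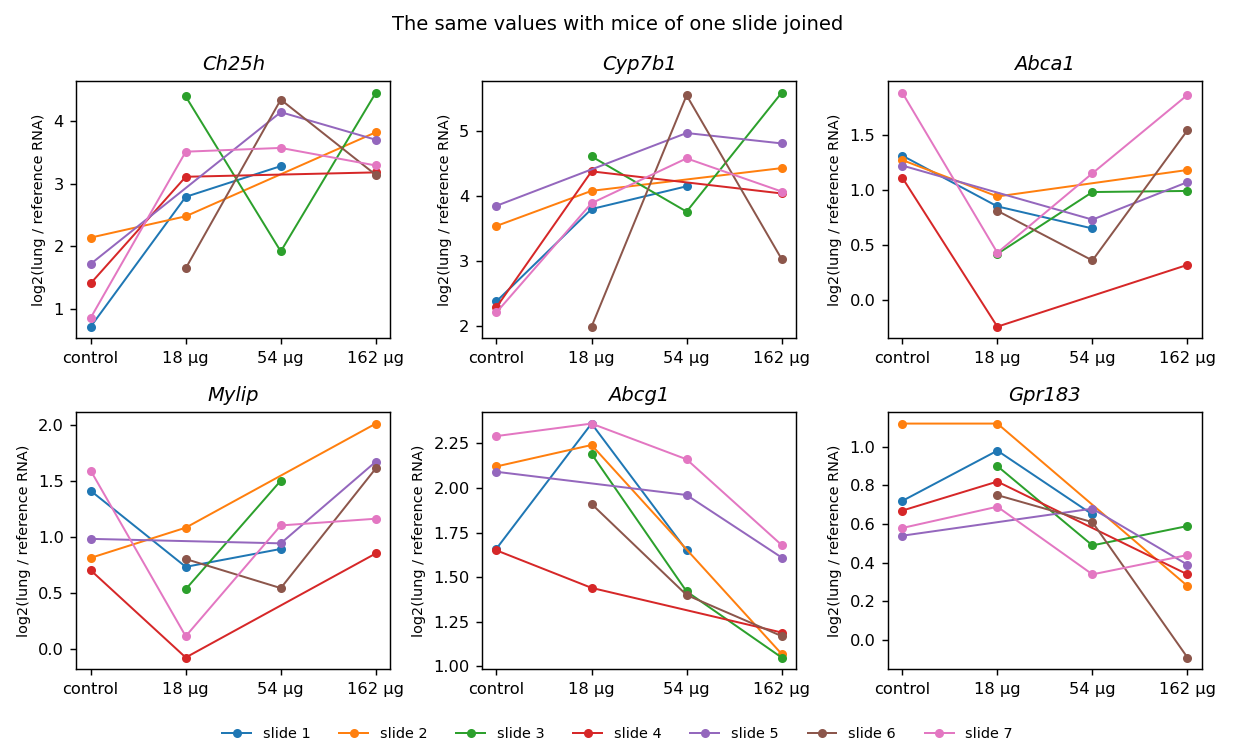
The log2 ratio of lung to reference RNA (y axis) of 6 genes by dose group (x axis), with a line for each of the 7 slides joining the mice hybridised on it. Every line from control to a dose rose for Ch25h and Cyp7b1, and every line from 18 to 162 µg fell for Abcg1 and Gpr183 and rose for Abca1.

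The other genes of oxysterol metabolism and LXR signalling formed a list of 26, of which 24 were expressed. At 18 µg 1 was called lower, at 54 µg none, and at 162 µg 1 was called higher and 1 lower. Of all named genes 1.18% were called lower at 18 µg, 0.32% were called at 54 µg, and 2.74% were called higher and 2.9% lower at 162 µg. At 18, 54 and 162 µg the median log2 fold change of the list was -0.11, -0.02 and 0.05. The gene that fell was Cyp39a1, an oxysterol 7α-hydroxylase that prefers 24-hydroxycholesterol, with means of 1.26 ± 0.14 (SD, n = 5) in controls, 0.58 ± 0.26 (SD, n = 6) in the 18 µg group and 0.60 ± 0.50 (SD, n = 6) in the 162 µg group. Against controls the fitted log2 difference was -0.87 (SE 0.15, adjusted p = 0.0144) at 18 µg and -0.79 (SE 0.15, adjusted p = 0.00464) at 162 µg. The gene that rose was Lpl, the lipoprotein lipase and an LXR target, from 1.75 ± 0.46 (SD, n = 5) in controls to 3.08 ± 0.35 (SD, n = 6) at 162 µg, a log2 difference of 1.23 (SE 0.26, adjusted p = 0.00947). Lpl was at 1.24 ± 0.24 (SD, n = 6) at 18 µg and was the gene of this list that differed most between 162 and 18 µg (1.82, adjusted p = 0.000579). The 2 others called higher at 162 than at 18 µg, Mertk (1.01), a receptor for the uptake of dying cells, and Hsd11b1 (0.78), were named after their values were seen. In that comparison 2.74% of all named genes were called higher. The sphingomyelin phosphodiesterase-like gene Smpdl3a, an LXR target, had -0.51 at 162 µg (adjusted p = 0.0195), below the fold threshold.

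The SREBP2 targets, the genes of cholesterol synthesis and uptake that 25-hydroxycholesterol is known to hold back, held no gene called lower at any dose. Of 16, all expressed, none was called at 18 µg and none at 54 µg, and at 162 µg 3 were called higher and none lower. Of all named genes 1.7% were called at 18 µg and 0.32% at 54 µg, with 1.18% and 0.115% called lower. At 162 µg 2.74% were called higher and 2.9% lower, so none called lower among 16 genes lies near these shares. Whether 25-hydroxycholesterol acted on these genes was not tested. At 18, 54 and 162 µg the median log2 fold change of the 16 targets was 0.09, 0.32 and 0.18, with 10, 14 and 13 of them above 0. Phosphomevalonate kinase (Pmvk) rose from 0.38 ± 0.23 (SD, n = 5) in controls to 1.75 ± 0.54 (SD, n = 6) at 162 µg, a log2 difference of 1.42 (SE 0.24, adjusted p = 0.00200). Lanosterol synthase (Lss) had a log2 difference of 0.66 (SE 0.16, adjusted p = 0.0187) at 162 µg.

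**Figure D4:**
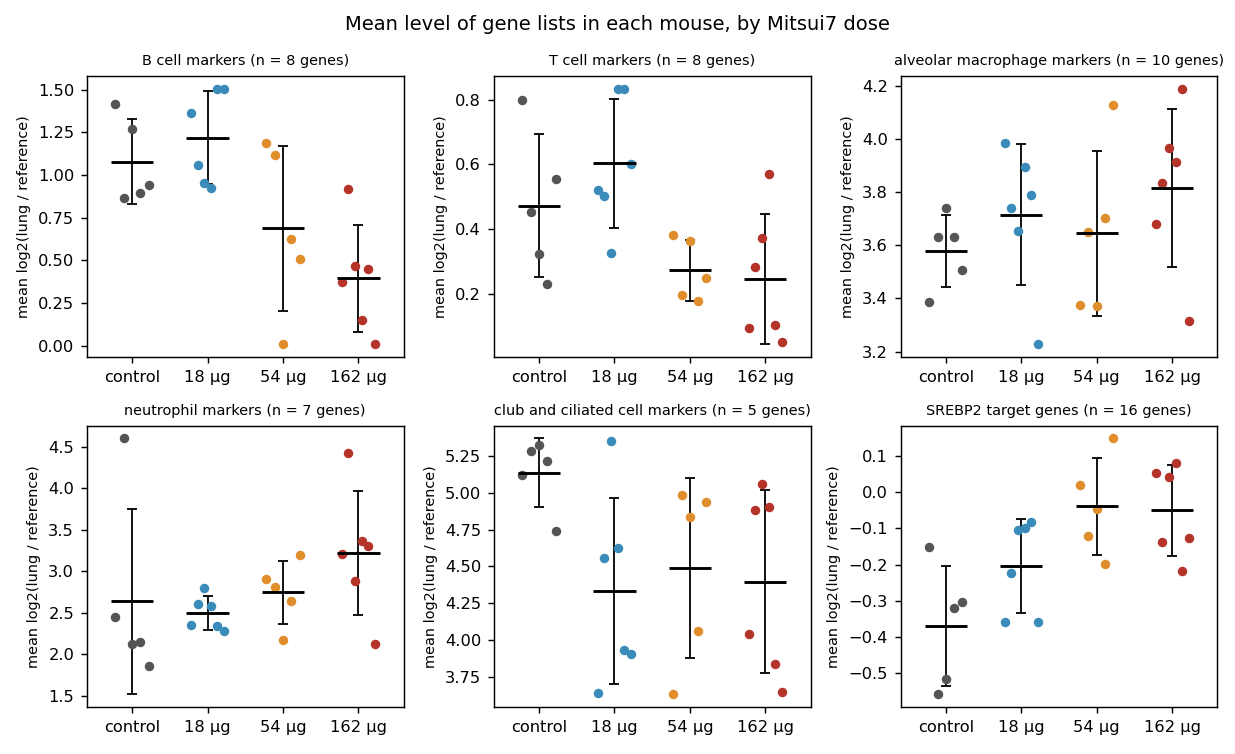
Mean log2 ratio of lung to reference RNA (y axis) over the expressed genes of 6 lists in each mouse, by dose group (x axis), with 1 point per mouse and bars for the mean and 1 SD. B cell markers were lowest at 162 µg (medians of 0.94 in controls and 0.41), control replicate 2 lay at 4.60 in neutrophil markers, and SREBP2 targets lay at -0.32 in the median control and -0.04 at 162 µg.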

How the data were processed

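Lung RNA of 22 mice, labelled with Cy5, was measured against a Cy3-labelled universal mouse reference RNA on dual-colour arrays. The authors deposited intensity values, the median signal of each spot in both channels without background subtraction or normalization, as Feature Extraction saved them (version 10.7.3.1 in the headers). A deposited table of log2 ratios, whose normalization is not stated, served as an alternative.

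Spots marked as outliers were left out, log ratios were loess-normalized (span 0.3) and the median was taken over replicate spots. R 4.3.3 with limma 3.58.1 fitted dose and slide over 22 arrays and 7 slides (residual degrees of freedom: 12), with Benjamini-Hochberg adjustment over 55681 probes. A probe was expressed where Cy5 exceeded the trimmed mean (5%) plus 3 trimmed standard deviations of 308 negative controls, in 80% or more of any 1 group. Of the probes 26413 were named through RefSeq, and a gene was represented by its brightest probe. The script was tested on simulated data. The number of arrays limits the precision.

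The 9 genes, the gene lists, motifs and tests were chosen with earlier results of these data known. Named genes were the 9, genes of the 2 pathway lists called at any dose or, up to 3, lowest in p at 162 µg, the 5 genes most like Ch25h, Cyp7b1 and Gpr183, and called marker genes. Mertk and Hsd11b1 were named outside it. Alternatives concerned background, normalization, channel, slide and replicate terms, filters, probes and single mice. Values of some genes of these lists are not reported here.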

Additional observations from a re-analysis of the deposited data

Results flagged for a closer look

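In 4 of 44 groups of 5 or 6 mice, 1 mouse lay far from the others on Dixon's gap test, which chance marks in about 1 of 20 groups. Cyp7b1 at 18 µg had 1 low mouse, replicate 6, with a log2 ratio of 1.99. Abca1 in controls had 1 high mouse, replicate 5, with 1.88. Nr1h2 had the same control mouse, replicate 5, high at 0.55. The dimmer probe of Mylip had 1 high control, replicate 3, at 0.59.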

How the results depend on the processing

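Of 36 log2 fold changes of the 9 genes, each against 16 alternatives, 488 values kept their direction and side of the threshold, 35 lost a call, 22 gained one and 31 turned in direction, none of them called. The scan date coincided with the slide, so it was not run apart from it. The normalization of average intensities leaves log ratios as they are. The scanner flag filter and the fit with no expression filter change only which probes count as expressed. All 36 values stayed the same with each of these settings, so they lend no weight to the counts out of 16. Quantile normalization of both channels and leaving out slides 3 and 7 were chosen after seeing the data. The cause of these changes was not tested.

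With median centring 0 of the 9 genes were called at 18 µg, at 162 µg and at 162 against 18 µg, 0 pathway genes at 18 and 162 µg and 0 SREBP2 targets at 162 µg (the lists were not run for 162 against 18 µg), and Abcg1 turned to -0.16 at 18 µg and Nr1h2 to -0.35 at 18 µg and -0.18 at 162 µg. Centring moved the median of all genes from -0.012 to -0.185 at 18 µg, where Abcg1 went from 0.23 to -0.16. With centring this median was -0.0301 at 54 µg and -0.1215 at 162 µg. Without normalization these counts were also 0, the medians of all genes were -0.3395, 0.1328 and -0.1405, and at 18 µg Gpr183 was at -0.076, Abcg1 at -0.31, Nr1h2 at -0.51 and Lpcat3 at -0.11. At 54 µg Gpr183 was then at 0.063, Nr1h2 at 0.16 and Nr1h3 at 0.0069, and at 162 µg Nr1h2 at -0.19 and Mylip at -0.0375.

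At 18 µg, the count of the 9 genes was 0 with quantile normalization, the deposited log2 table, no slide term and slides 3 and 7 left out, and 2 with slide as a random block. The pathway count at 18 µg was 0 with the Cy5 channel alone, the deposited table, no slide term, only the 2 groups compared, and slides 3 and 7 left out. At 54 µg, the count of the 9 genes was 2 with the Cy5 channel alone, 1 with slide as a random block, 1 without slides 3 and 7, and 3 with only the 2 groups compared, where the pathway and SREBP2 counts were 1 each. With Cy5 alone Nr1h2 turned to -0.11 at 18 µg and 0.019 at 54 µg, Nr1h3 to 0.10 and Mylip to 0.0014 at 54 µg. Nr1h3 at 18 µg turned to 0.0421 with quantile normalization, 0.0238 without a slide term, 0.0056 with the random block, 0.0293 without slides 3 and 7 and 0.0539 with the mean of all probes, which took Mylip at 54 µg to 0.0435. Nr1h2 at 54 µg turned to 0.11 without a slide term and 0.0573 with the random block, and Gpr183 at 54 µg to 0.0058 without slides 3 and 7.

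Nothing in the labels says that a replicate number marks a shared batch. The deviations of mice from their group means correlated above 0.1 in 20 of 31 pairs of the same number (median 0.17) and in 40 of 150 pairs of different numbers (median -0.056), so same-numbered mice were more alike, but not in every pair, and the number was not used as a pairing. With a replicate block in place of slide, 2 of the 9 genes were called at 18 µg and 2 at 54 µg, and 0 pathway genes at 18 µg, while Nr1h3 at 18 µg was at 0.0055 and Nr1h2 at 54 µg at 0.11. With the replicate block beside slide, 2 of the 9 genes were called at 18 µg and 1 at 162 against 18 µg, and at 162 µg 0 pathway genes and 1 SREBP2 target. Nr1h2 was then at -0.0848 at 18 µg and -0.0339 at 162 µg, and Nr1h3 at 0.0301 at 18 µg and 0.0096 at 54 µg.

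With single mice left out, the count of the 9 genes ranged from 0 to 3 at 18 µg, highest without 54 µg replicate 5, and from 0 to 2 at 54 µg, highest without 54 µg replicate 3. Between 0 and 2 pathway genes were then called at 18 µg (highest without control replicate 2), between 0 and 1 at 54 µg (without 162 µg replicate 2) and between 2 and 4 at 162 µg (highest without 54 µg replicate 3), and SREBP2 counts ran from 1 to 4 at 162 µg, lowest without control replicate 4 or 162 µg replicate 1. Nr1h2 ranged from -0.0069 to 0.0719 at 18 µg, from -0.12 to 0.0848 at 54 µg and from -0.0297 to 0.17 at 162 against 18 µg, and Nr1h3 from -0.10 to 0.0395 at 18 µg.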
